A study of Homo sapiens with 6 samples.

Results

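The genes for the DNA methyltransferases DNMT1, DNMT3A, DNMT3B and DNMT3L, the TET enzymes TET1, TET2 and TET3, and the UHRF proteins UHRF1 and UHRF2 were examined in cells with and without an siRNA against HOXA3. The 9 genes were taken by symbol from GENCODE release 29, and all 9 were among the 58735 genes of the count table. The cells came from H9, 1 line of human embryonic stem cells of WT genotype, and were differentiated into the endoderm of the third pharyngeal pouch (3PPE), the embryonic origin of the thymus and the parathyroid. They received Activin A and WNT3A first, and later retinoic acid, BMP4, SB431542 (a TGF-beta receptor inhibitor) and IWP2 (a Wnt secretion inhibitor). At day 7 the siControl cells received a negative control siRNA and the siHOXA3 cells the siRNA against HOXA3, both with a lipid reagent, and the medium was then changed to opti-MEM. RNA was taken at day 9 from 3 samples of each group. No group without a transfection was analysed here, and the siRNA lowers a transcript transiently and does not remove the gene. The labels do not say whether the 3 samples of a group were separate cultures, while the study describes its experiments in general as independent biological repeats. The p-values measure the spread between these samples.

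Methyl groups on the cytosine of CpG dinucleotides are copied onto each new DNA strand and can be written anew or removed. DNMT1 copies them behind the replication fork, and UHRF1 brings it there by binding CpG sites methylated on the old strand and by ubiquitinating histone H3. DNMT3A and DNMT3B write new methylation, and DNMT3L, which has no catalytic activity, assists them in germ cells and early embryos. The TET enzymes oxidise methylcytosine to hydroxymethylcytosine and further, which opens the way to an unmodified base. UHRF2 resembles UHRF1, binds hydroxymethylated DNA and does not replace UHRF1 in maintenance. DNMT3B and TET1 are known for high expression in pluripotent cells, and TET2 and TET3 are better known in differentiated cells and in blood.

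Sequences at transcript starts of these genes are shown because CpG sites are what the 9 proteins act on, and because DNMT1 and UHRF1 work together in S phase, when E2F factors drive transcription. Windows from 250 bases before to 50 bases after a transcript start were available in RefSeq (GRCh38.p14) for 8 of the 9 genes, and the other gene was DNMT3L. The letters searched for E2F were TTTCGCGC and TTTGGCGC on both strands, which 1.15% of the 35116 promoter windows held. Among the windows of the 8 genes, these letters were found in that of DNMT1 and in 1 of the 3 windows of UHRF1, where capitals mark them below. In DNMT1 (chr19:10194904-10195203, minus strand) they began at position -2 relative to the start, and in UHRF1 (chr19:4909894-4910193, plus strand) at position -160. Both starts lie inside the gene as GENCODE annotates it, 36333 bases from the outermost start for DNMT1 and 7064 for UHRF1, and 4 of the 28 DNMT1 transcripts and 1 of the 7 UHRF1 transcripts begin within the windows. A match of letters is a description and does not show binding. Other forms of the E2F site were not searched, so a window without these letters may still hold such a site.
DNMT1: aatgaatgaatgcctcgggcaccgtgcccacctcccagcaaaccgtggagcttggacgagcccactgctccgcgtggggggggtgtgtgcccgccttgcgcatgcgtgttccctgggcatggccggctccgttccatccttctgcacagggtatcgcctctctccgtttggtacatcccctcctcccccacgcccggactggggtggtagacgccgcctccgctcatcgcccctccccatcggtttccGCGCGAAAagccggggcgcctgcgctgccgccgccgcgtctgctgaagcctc
UHRF1: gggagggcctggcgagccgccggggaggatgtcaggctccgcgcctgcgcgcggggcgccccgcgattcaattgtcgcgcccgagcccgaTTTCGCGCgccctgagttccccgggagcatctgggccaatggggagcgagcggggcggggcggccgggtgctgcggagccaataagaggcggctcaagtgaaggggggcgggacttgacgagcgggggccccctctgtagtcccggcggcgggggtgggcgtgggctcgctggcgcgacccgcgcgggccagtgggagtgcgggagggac

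UHRF2 was chosen for the next sequence because its expression was lower in siHOXA3 without overlap of the groups, as was that of 6.88% of all genes. Its difference did not pass edgeR's quasi-likelihood test over all genes (adjusted p = 0.789). The window of UHRF2 (chr9:6412949-6413248, plus strand) is shown with capitals for CpG. Its start lies 48 bases from the outermost start in GENCODE, and 2 of the 13 UHRF2 transcripts begin within it. It held 26 CpG, against a median of 14 and quartiles of 4 and 28 over all windows. The DNMT1 and UHRF1 windows shown above held 30 and 40. The only window of DNMT3B, 17467 bases inside the gene at the start of 1 of its 6 transcripts, is not shown. It held 3 CpG, below that median, as did the 3 windows of TET1 with 10, 6 and 11 and 1 of TET2 with 13. Every other window of the 8 genes held at least 18.
UHRF2: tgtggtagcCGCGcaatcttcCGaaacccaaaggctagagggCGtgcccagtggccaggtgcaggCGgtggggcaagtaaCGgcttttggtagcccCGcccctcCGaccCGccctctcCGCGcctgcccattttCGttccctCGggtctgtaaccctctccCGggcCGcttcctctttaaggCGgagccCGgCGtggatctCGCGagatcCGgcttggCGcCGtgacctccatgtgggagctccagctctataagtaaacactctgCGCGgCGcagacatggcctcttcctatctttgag

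The libraries were compared before the genes were. Total counts were 14885355, 15171278 and 15191386 in siControl replicates 1, 2 and 3, and 14652931, 15282307 and 14117150 in siHOXA3 replicates 1, 2 and 3. Expression is given as CPM, counts scaled to the normalised library size, where 3 counts, the limit that a count of 0 allows, were worth 0.197 to 0.211 CPM, which covers counting error only. siHOXA3 replicate 2 stood apart from the other 5 libraries. Its log2 deviation from the mean of the 6 libraries fell with transcript length across the 16561 genes tested (Spearman's rho -0.391, across genes, which are not independent), whereas rho lay between 0.074 and 0.154 in the other libraries. Its median deviation was 0.23 in the fifth of genes with the shortest transcripts and -0.21 in the fifth with the longest. In the other 5 libraries, these medians and those of the length classes between them lay between -0.06 and 0.06. Genes for ribosomal proteins, which have short transcripts, took 4.88% of its counts and 3.19% to 3.74% of the others. Because the DNMT3A and TET transcripts are long, the comparisons between the groups are given with and without this library.

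**Figure D1:**
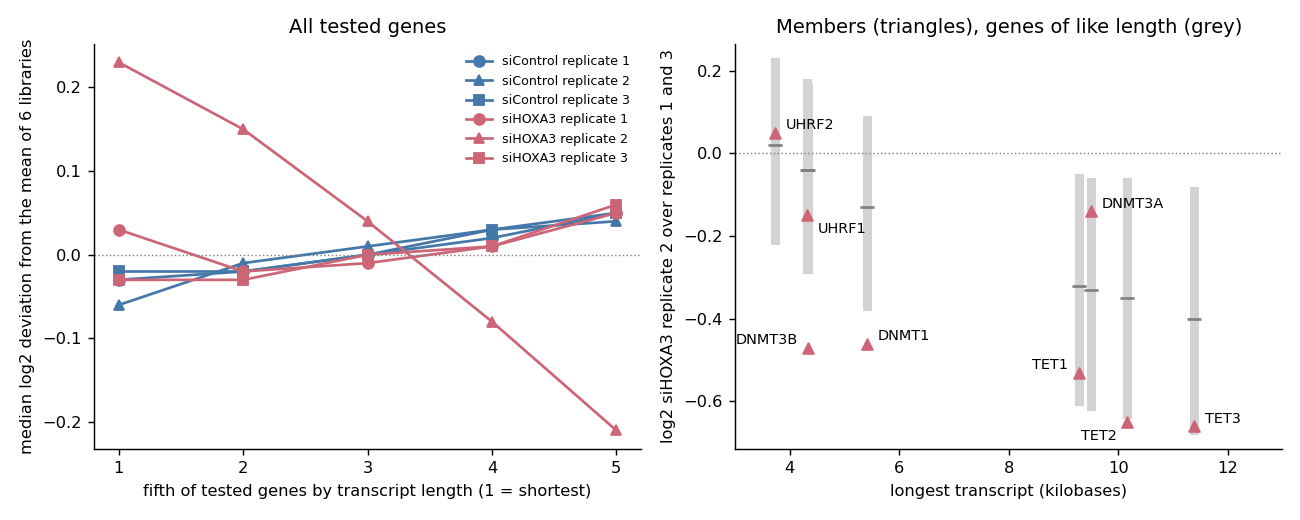
Left, the median log2 deviation (y axis) of each of the 6 libraries from their mean over 5 equal classes of the tested genes ordered by transcript length (x axis), where siHOXA3 replicate 2 runs from 0.23 to -0.21 and the other 5 libraries stay between -0.06 and 0.06. Right, the log2 ratio of siHOXA3 replicate 2 to the mean of siHOXA3 replicates 1 and 3 (y axis) against longest transcript in kilobases (x axis), with triangles for the 8 genes tested and grey bars and ticks for the quartiles and median of genes within 20% of the same length.

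The label of the cells was checked against cell type markers. CDH1 and EPCAM, which mark epithelia, were at 662.8 ± 2.89 and 262.9 ± 8.23 CPM (SD, n = 3) in siControl, and EYA1, a pouch factor, was also detected. The defining endoderm and pouch transcription factors FOXA2, SOX17, PAX1 and PAX8 had at most 3 counts in each library and were not detectable above that limit, and PAX9 and TBX1 had at most 16 counts. Markers of amnion and trophoblast ranged widely, with IGFBP3 the highest at 3117 ± 156 CPM (SD, n = 3) in siControl. GABRP, VTCN1, GATA3 and TFAP2A followed with siControl means of 953.8, 569.1, 291.1 and 236.9 CPM. The trophoblast genes CGA, GCM1, ELF5 and CGB5 had mean levels of 17.4, 1.79, 0.266 and 0.0668 CPM and ISL1, an amnion gene, 12.1 CPM. Of the mesenchyme markers, collagen genes were abundant, led by COL1A1 at 1364 ± 52.7 CPM (SD, n = 3), whereas the transcription factor TWIST1 was at 3.59 ± 1.17 CPM (SD, n = 3) and PRRX1, at 0 counts in every library, was not detectable above the limit of 3 counts. LIN28A, ZFP42 and DPPA4, pluripotency genes, were at 1049 ± 13.5, 129.3 ± 6.16 and 101.7 ± 7.42 CPM (SD, n = 3) in siControl. POU5F1, SOX2 and DPPA2 had siControl means of 5.47, 3.62 and 0.661 CPM, and NANOG had at most 4 counts in each library. TDGF1, PRDM14 and UTF1, 3 of the 10 pluripotency markers, had at most 3 counts in each library. Of the markers tested by edgeR, 3 of 6 for the pouch and endoderm, 5 of 5 for pluripotency, 0 of 2 for germ cells, 1 of 2 for neural cells and 0 of 1 for liver had a fold change above 0 in siHOXA3, and none of these had an unadjusted p under 0.05. The cells are called by their label, 3PPE, although FOXA2, SOX17, PAX1 and PAX8 were not seen above that limit. The libraries are of bulk RNA, so fewer cells of a type and less RNA per cell cannot be told apart.

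HOXA3, the target of the siRNA, had 16.6, 15.9 and 15.5 CPM in siControl replicates 1, 2 and 3 and 10.9, 13.2 and 15.5 CPM in siHOXA3 replicates 1, 2 and 3. The groups overlapped at the library labelled siHOXA3 replicate 3. As annotated, HOXA3 overlaps HOXA4, HOXA5, HOXA6, AC004080.5 and AC004080.6 on its own strand and HOXA-AS2 and HOXA-AS3 on the other. It shares 8.03% of its 50-base stretches with other genes, among them AC004080.5 and AC004080.6. The use of strand is not stated, and the part of these genes in its counts was not tested. The log2 fold change was -0.27 (95% interval -0.62 to 0.07) by edgeR's quasi-likelihood test, with an adjusted p of 0.828, and -0.28 (adjusted p = 0.569) without siHOXA3 replicate 2. It moved more with the other siHOXA3 libraries, to -0.15 without replicate 1 (adjusted p = 0.861) and -0.40 without replicate 3 (adjusted p = 0.596). The study itself reports less HOXA3 after this siRNA by qRT-PCR, Western blot and immunofluorescence, which are other measures than these counts. All comparisons below are thus between libraries by their siRNA label, with no lowering of HOXA3 in these counts that passed the test.

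Of the 9 genes, 8 had enough counts to be tested. In edgeR's quasi-likelihood test none had an adjusted p under 0.05 and none an unadjusted p under 0.05, against 0.00604% (1 gene) and 6.36% of the 16561 genes tested. All 8 fitted log2 fold changes were below 0, from -0.18 to -0.003, with a median of -0.09 beside 0.002 for all genes. The common sign held without siHOXA3 replicate 1 or 3, at -0.28 to -0.02, and was lost when any other library was left out. Without any 1 of the siControl libraries, 1 or 2 of DNMT3A, TET2 and UHRF1 were above 0, by at most 0.05. Without siHOXA3 replicate 2, 7 of the 8 were above 0, with a median of 0.03, and only UHRF2 was below. UHRF2 was then also the only one with an unadjusted p under 0.05, beside 10.7% of the 17144 genes tested, and none had an adjusted p under 0.05, beside 0.14% of genes. Groups without overlap, lower in siHOXA3, were seen in 1 of the 8 genes, again UHRF2, and in 6.88% of all genes. None of the 8 had groups without overlap that were higher in siHOXA3, beside 6.41% of all genes. Without siHOXA3 replicate 2, when separation is more common, UHRF2 was lower without overlap, beside 13.8% of all genes, and DNMT3A and TET2 were higher without overlap, again beside 13.8%.

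**Figure D2:**
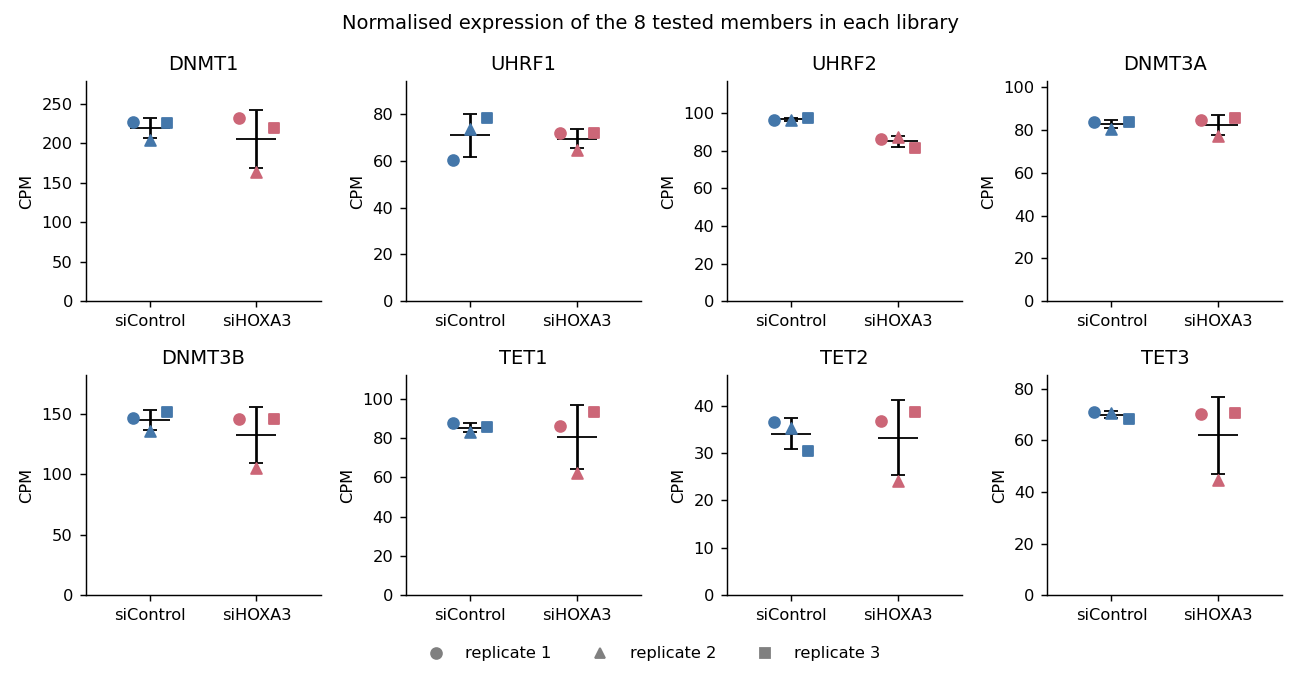
CPM (y axis, from 0) of the 8 tested genes in the 3 siControl and 3 siHOXA3 libraries (x axis), with the mean and SD of each group in black. The triangle of siHOXA3 replicate 2 is the lowest of the 6 libraries for DNMT1, DNMT3A, DNMT3B, TET1, TET2 and TET3, and all 3 siHOXA3 libraries lie below all 3 siControl libraries for UHRF2.

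DNMT1 (ENSG00000130816, chromosome 19 from 10133345 to 10231286, minus strand), the maintenance methyltransferase, had the highest CPM of the 9 genes. It was at 227.3, 203.9 and 225.3 CPM in siControl replicates 1, 2 and 3 and at 232.1, 164 and 219.5 CPM in siHOXA3 replicates 1, 2 and 3. siHOXA3 replicate 2 was the lowest library and siHOXA3 replicate 1 the highest, so the groups overlapped. The group means were 218.8 ± 13 and 205.2 ± 36.2 CPM (SD, n = 3), a log2 fold change of -0.09 (standard error 0.132, 95% interval -0.38 to 0.20) with an adjusted p of 0.916. Without siHOXA3 replicate 2 it was 0.04 (95% interval -0.11 to 0.20, adjusted p = 0.882). siHOXA3 replicate 2 had 72.6% of the mean of siHOXA3 replicates 1 and 3, a log2 of -0.46, beside a median of -0.13 (quartiles -0.37 and 0.08) for genes with transcripts within 20% of its length.

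UHRF1 (ENSG00000276043, chromosome 19 from 4903080 to 4962154, plus strand), which recruits DNMT1, varied more within siControl than between the groups. It was at 60.42, 73.49 and 78.28 CPM in siControl replicates 1, 2 and 3 and at 71.71, 64.57 and 71.83 CPM in siHOXA3 replicates 1, 2 and 3. All 3 siHOXA3 values lay inside the siControl range, which siControl replicate 1 opened downward. The log2 fold change was -0.03 (standard error 0.117, 95% interval -0.29 to 0.23, adjusted p = 0.969), and 0.02 (adjusted p = 0.969) without siHOXA3 replicate 2. UHRF1 shares sequence with a pseudogene, AC112777.1 on chromosome 12, and 21.1% of its 50-base stretches, most of them shared with that pseudogene, are not unique to it. The pseudogene held 6.04% of the summed counts of both (4.71% to 8.11% by library), and the summed expression was 74.81 ± 9.52 CPM in siControl and 74.33 ± 5.72 CPM in siHOXA3 (SD, n = 3).

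UHRF2 (ENSG00000147854, chromosome 9 from 6413151 to 6507054, plus strand), an E3 ubiquitin ligase with the same domain types as UHRF1, was the gene whose groups separated. It was at 96.34, 96.1 and 97.47 CPM in siControl replicates 1, 2 and 3 and at 86.42, 87.11 and 81.62 CPM in siHOXA3 replicates 1, 2 and 3. Every siHOXA3 library lay below every siControl library, as for 6.88% of all genes, and siHOXA3 replicate 2 was the highest of its group. The means were 96.64 ± 0.734 and 85.05 ± 2.99 CPM (SD, n = 3), lower by 12% in siHOXA3 (percent change -12). The exact permutation test over the 6 libraries gave a two-sided p of 0.1, the smallest that 3 libraries against 3 allow. By edgeR's quasi-likelihood test the log2 fold change was -0.18 (standard error 0.091, 95% interval -0.38 to 0.02), with an unadjusted p of 0.0684 and an adjusted p of 0.789. The difference did not pass the test over all genes.

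The fold change of UHRF2 stayed below 0 when other settings were tried. It was -0.20 (95% interval -0.36 to -0.05, unadjusted p = 0.0149, adjusted p = 0.351) without siHOXA3 replicate 2, -0.17 (adjusted p = 0.742) with a correction for transcript length, and from -0.20 to -0.15 when single libraries were left out. The adjusted p lay between 0.293 and 0.997 over all alternatives. UHRF2 shares 0.795% of its 50-base stretches with another gene, the pseudogene UHRF2P1, which had 22 counts over the 6 libraries. Markers of other cell types moved in the same libraries. The 10 amnion and trophoblast markers summed to 4937, 5299 and 5362 CPM in siControl and 5508, 6080 and 5981 CPM in siHOXA3. The 8 mesenchyme and fibroblast markers summed to 3691, 3763 and 3521 CPM in siControl and 3907, 3971 and 4252 CPM in siHOXA3. The 10 pluripotency markers, of which LIN28A was the most abundant, summed to 1262, 1293 and 1316 CPM in siControl and 1420, 1480 and 1320 CPM in siHOXA3. All 3 sums were higher in every siHOXA3 library than in any siControl library, as was the CPM of 6.41% of all genes. For pluripotency the gap was narrow, with 1320 CPM in siHOXA3 replicate 3 beside 1316 CPM in siControl replicate 3. Single genes made up much of 2 sums, with siControl means of 1049 CPM for LIN28A and 3117 CPM for IGFBP3. IGFBP3 and COL1A1 were the most abundant genes of the amnion and mesenchyme lists, with 1 of 10 and 1 of 8 markers at most 3 counts in each library. 5 of 8 tested amnion and trophoblast markers and 6 of 7 tested mesenchyme markers had a fold change above 0, with unadjusted p-values of 0.0496 for TFAP2A, 0.00484 for VIM and 0.0116 for THY1. In edgeR's fit without siHOXA3 replicate 2, 4 of the 8, CGA being lower, and 5 of the 7 had an unadjusted p under 0.05, beside 10.7% of all genes, and none an adjusted p under 0.05. Their part in the UHRF2 difference was not tested.

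**Figure D3:**
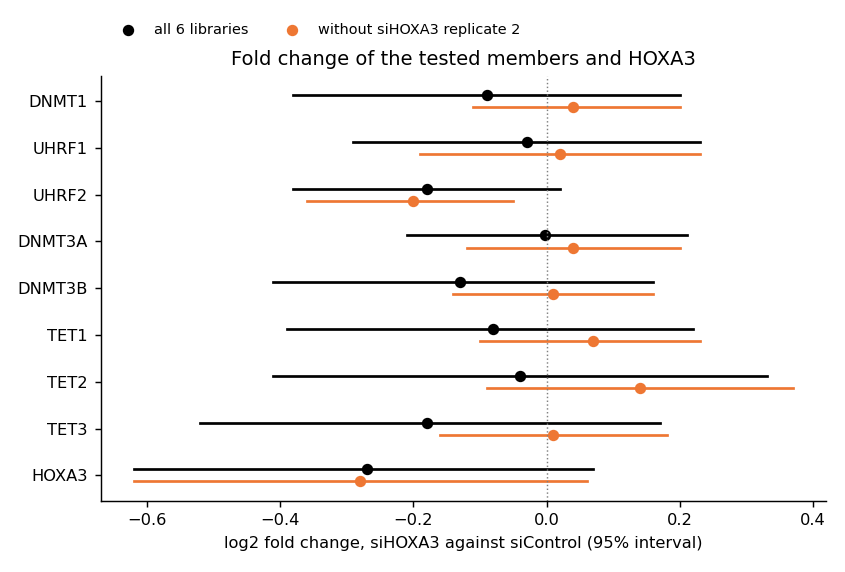
Log2 fold change of siHOXA3 against siControl (x axis) with its 95% interval for the 8 tested genes and HOXA3 (y axis), from the 6 libraries (black) and without siHOXA3 replicate 2 (orange). Without that library 7 of the 8 genes lie above 0 and the interval of UHRF2 runs from -0.36 to -0.05.

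DNMT3A (ENSG00000119772, chromosome 2 from 25227855 to 25342590, minus strand), a writer of new methylation, had the smallest fold change of the 8 genes. It was at 83.65, 80.63 and 83.78 CPM in siControl replicates 1, 2 and 3 and at 84.7, 77.14 and 85.71 CPM in siHOXA3 replicates 1, 2 and 3. siHOXA3 held both the lowest library and the highest library. The log2 fold change was -0.003 (standard error 0.095, 95% interval -0.21 to 0.21, adjusted p = 0.995), and 0.04 (95% interval -0.12 to 0.20, adjusted p = 0.895) without siHOXA3 replicate 2. Although its longest transcript is 9501 bases, siHOXA3 replicate 2 reached 90.5% of the mean of the other siHOXA3 libraries, a log2 of -0.14 beside a median of -0.33 for genes of like length.

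DNMT3B (ENSG00000088305, chromosome 20 from 32762385 to 32809356, plus strand), the writer typical of pluripotent cells, was at 146.4, 135.6 and 151.7 CPM in siControl replicates 1, 2 and 3. In siHOXA3 replicates 1, 2 and 3 it was at 145.9, 105.4 and 145.9 CPM. Replicates 1 and 3 of siHOXA3 lay within the siControl range, and replicate 2 lay below all other libraries. The log2 fold change was -0.13 (standard error 0.131, 95% interval -0.41 to 0.16, adjusted p = 0.887), and 0.01 (95% interval -0.14 to 0.16, adjusted p = 0.975) without that library. siHOXA3 replicate 2 had a log2 of -0.47 against replicates 1 and 3, beside a median of -0.04 with quartiles of -0.28 and 0.16 for genes within 20% of its 4336 bases, of which 12.8% lay lower than DNMT3B. DNMT3L, the cofactor of both writers, was at the limit of detection with 1, 0 and 2 counts in siControl and 1, 4 and 0 in siHOXA3. It was not tested, and it shares 24.4% of its 50-base stretches with the gene FP565260.4, which had no counts.

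TET1 (ENSG00000138336, chromosome 10 from 68560656 to 68694482, plus strand), the dioxygenase known from pluripotent cells, was at 87.61, 83.01 and 85.68 CPM in siControl replicates 1, 2 and 3. It was at 86.08, 62.37 and 93.6 CPM in siHOXA3 replicates 1, 2 and 3, which enclosed the siControl values. The log2 fold change was -0.08 (standard error 0.139, 95% interval -0.39 to 0.22, adjusted p = 0.927), and 0.07 (95% interval -0.10 to 0.23, adjusted p = 0.799) without siHOXA3 replicate 2. TET2 (ENSG00000168769, chromosome 4 from 105145875 to 105279816, plus strand), the member that lacks a CXXC domain of its own, was at 36.66, 35.23 and 30.53 CPM in siControl and 36.71, 24.14 and 38.8 CPM in siHOXA3 replicates 1, 2 and 3. Its siHOXA3 libraries again lay on both sides of siControl. The fold change was -0.04 on the log2 scale (standard error 0.170, 95% interval -0.41 to 0.33, adjusted p = 0.97), and 0.14 (95% interval -0.09 to 0.37, adjusted p = 0.683) without siHOXA3 replicate 2. TET3 (ENSG00000187605, chromosome 2 from 73986404 to 74108176, plus strand), the enzyme of the zygote, was at 71.23, 70.52 and 68.45 CPM in siControl and 70.47, 44.75 and 70.71 CPM in siHOXA3 replicates 1, 2 and 3. The other 5 libraries lay between 68.45 and 71.23 CPM, and siHOXA3 replicate 2 lay far below them. The log2 fold change was -0.18 (standard error 0.158, 95% interval -0.52 to 0.17, adjusted p = 0.867), and 0.01 (95% interval -0.16 to 0.18, adjusted p = 0.982) without that library.

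All 3 TET genes were low in siHOXA3 replicate 2. It had 69.4% of the mean of siHOXA3 replicates 1 and 3 for TET1, 63.9% for TET2 and 63.4% for TET3. These were log2 values of -0.53, -0.65 and -0.66, beside medians of -0.32, -0.35 and -0.40 for genes of like length. TET1 and TET3 lay within the quartiles of such genes and TET2 lay below them. With the correction for transcript length the log2 fold changes of TET1, TET2 and TET3 were -0.01, 0.03 and -0.10, with adjusted p-values from 0.868 to 0.991. Antisense genes overlap TET2, TET3 and UHRF2, and without a stated strand their reads cannot be told apart, but TET2-AS1 held 13 counts in the 6 libraries, AC110801.1 in TET3 held 6 and AL133480.1 in UHRF2 held 3. DNMT1 overlaps S1PR2 on the same strand, which had 903 counts against 18869 for DNMT1.

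Levels of different genes were compared per length, as CPM per kilobase of summed exons. In siControl the order was DNMT3B at 31.22 ± 1.77, DNMT1 at 22.34 ± 1.32, UHRF1 at 13.75 ± 1.8, UHRF2 at 9.742 ± 0.074 and TET1 at 9.198 ± 0.249 CPM per kilobase (SD, n = 3). It continued with DNMT3A at 6.879 ± 0.148, TET3 at 5.71 ± 0.118, TET2 at 2.072 ± 0.195 and DNMT3L at 0.03553 ± 0.0352 CPM per kilobase (SD, n = 3). By the mean over all 6 libraries, DNMT3B stood at the 92.3rd percentile of tested genes on this scale and TET2 at the 34.1st. Per kilobase of the longest transcript, these percentiles were 89.2 and 38.3. Neighbours in this order did not overlap within siControl. Over all 6 libraries DNMT3B overlapped DNMT1, UHRF2 overlapped TET1, and TET1 overlapped DNMT3A, and without siHOXA3 replicate 2 only UHRF2 and TET1 overlapped. The scale set part of the order. Per kilobase of the longest transcript, DNMT1 (40.46) came before DNMT3B (33.34), UHRF2 (25.96) before UHRF1 (16.41), and TET1, DNMT3A, TET3 and TET2 kept their places at 9.198, 8.703, 6.153 and 3.358 CPM per kilobase.

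**Figure D4:**
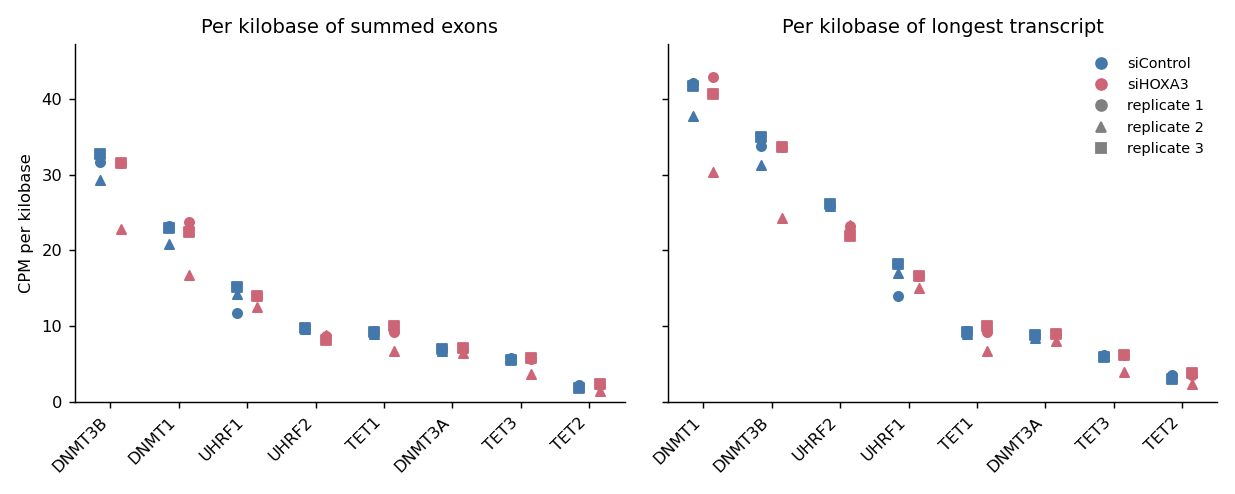
Expression per length (y axis, CPM per kilobase, from 0) of the 8 tested genes (x axis) in each library, per kilobase of summed exons (left) and of the longest transcript (right), with colours for the groups and symbols for the replicates. DNMT1 and DNMT3B, and UHRF1 and UHRF2, change places between the scales, and TET1, DNMT3A, TET3 and TET2 keep theirs.

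With all 6 libraries, the balance within each family did not separate the groups. DNMT3B made up 81.9% ± 0.55 of the per-length level of DNMT3A and DNMT3B in siControl and 80.4% ± 2.1 in siHOXA3 (SD, n = 3, per kilobase of summed exons). Its lowest share, 78%, was in siHOXA3 replicate 2, without which the siHOXA3 mean was 81.6%. TET1 made up 54.2% ± 1.1 of the 3 TET genes in siControl and 55.3% ± 1.5 in siHOXA3, and TET3 33.6% ± 0.48 and 31.9% ± 1.3. For UHRF1 the share of the UHRF pair was 58.4% ± 3.2 in siControl and 61.1% ± 2.1 in siHOXA3, with siHOXA3 replicate 3 the highest at 62.9%. On the scale of the longest transcript the UHRF1 share was 38.6% ± 3.1 and 41.3% ± 2.1, so which of the pair was the more abundant depended on the scale. Without siHOXA3 replicate 2 the siHOXA3 mean of the UHRF1 share was 62.2% per kilobase of summed exons, and both remaining libraries, at 61.5% and 62.9%, lay above all siControl libraries. The CPM ratio of DNMT1 to UHRF2 separated in the same way, at 2.69 in both siHOXA3 libraries beside 2.12 to 2.36 in siControl. Both measures contain UHRF2, whose CPM was itself lower without overlap in this setting, while the CPM of UHRF1 and of DNMT1 overlapped. They are thus not separate from the UHRF2 difference. The share of TET2 also separated then, at 12.9% in both siHOXA3 libraries beside 11.1% to 12.7% in siControl, and the shares of TET1, TET3 and the DNMT genes overlapped. With these 5 libraries, the CPM of 13.8% of all genes separated in each direction, which is a background for single genes and not for shares or ratios. The CPM ratio of TET1 to DNMT3B, an eraser to a writer, was 0.592 ± 0.024 in siControl and 0.608 ± 0.029 in siHOXA3 (SD, n = 3). It was 0.592 in siHOXA3 replicate 2, where both genes were low, and 0.616 on average in the other siHOXA3 libraries, with the groups overlapping.

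Across the 6 libraries the log2 CPM of the DNMT and TET genes varied together, and siHOXA3 replicate 2 contributed to this for most pairs. With 6 libraries, which share that one low library, Pearson's r was 0.98 between DNMT1 and DNMT3B, 0.95 between TET3 and DNMT3B and 0.93 between DNMT1 and TET3. Leaving out siHOXA3 replicate 2 gave 0.83, -0.50 and -0.10. Other pairs stayed closer, with r of 0.92 and 0.91 with and without it for TET2 and TET3, 0.94 and 0.82 for DNMT3A and TET1, and 0.92 and 0.74 for DNMT3A and DNMT3B. UHRF2 had no r above 0.24 with any of the other 7 genes over the 6 libraries, and without siHOXA3 replicate 2 its r was -0.75 with TET1, -0.71 with DNMT3A and -0.70 with TET2.

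The genes most like each member in log2 CPM, among 11525 genes with a mean of at least 5 CPM, were KDM3B for DNMT1 (r = 0.997), CPLANE1 for DNMT3B (r = 0.998), CBFA2T2 for TET1 (r = 0.999) and TRAK1 for TET3 (r = 1.000). Those for DNMT3A and TET2 were STOX2 (r = 0.996) and TSC2 (r = 0.997), and those for UHRF1 and UHRF2 were EHHADH (r = 0.996) and MMD (r = 0.992). An r over 0.95 was found for 647 genes with TET3 and 533 with TET1, while 45 had one with UHRF2 and 11 with UHRF1. These numbers were 173, 48, 179 and 82 without siHOXA3 replicate 2. These correlations over 5 or 6 libraries are descriptions.

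Genes that act with the 9 were then examined in 9 lists, and in edgeR's fit none of their genes had an adjusted p under 0.05, with or without siHOXA3 replicate 2. Of the 105 genes tested, 5 were lower and 5 higher without overlap of the groups, 4.76% each, beside 6.88% and 6.41% of all genes, and 1 had an unadjusted p under 0.05, beside 6.36%. With siHOXA3 replicate 2 left out, 107 were tested, of which 10 were lower (9.35%) and 16 higher (15%) without overlap, beside 13.8% of all genes in each direction, and 7 (6.54%) had an unadjusted p under 0.05, beside 10.7%. Among 13 maintenance partners, 6 were above 0 and 7 below, with a median log2 fold change of -0.01, and 7 were above and 6 below without siHOXA3 replicate 2 (median 0.01). PCNA, the replication clamp to which DNMT1 binds, had 233.7 ± 9.26 CPM in siControl and 256.3 ± 58.9 in siHOXA3, where replicate 2 alone was high at 322.6. USP7, which deubiquitinates DNMT1 and UHRF1, had 198 ± 3.9 and 196.9 ± 8.25 CPM (SD, n = 3). Of 20 replication genes of S phase, 9 were above 0 and 11 below, with a median of -0.01. MCM4 and MCM3, subunits of the replicative helicase, had 378.8 ± 30.3 and 316.6 ± 20.9 CPM in siControl and 361.9 ± 12.3 and 292.6 ± 7.77 CPM in siHOXA3 (SD, n = 3). Without siHOXA3 replicate 2, 14 of the 20 were below 0, and RRM1 and GINS1 had unadjusted p-values of 0.0128 and 0.0166 with log2 fold changes of -0.19 and -0.21 (adjusted p = 0.335 and 0.361). These 2 of 20 stand beside 10.7% of all genes.

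Factors that guide the DNMT3 enzymes had 12 of 13 members tested, 4 above 0 and 8 below, with a median of -0.06. Their direction turned without siHOXA3 replicate 2, when 10 were above 0 and 2 below. TRIM28, the corepressor of KRAB zinc finger proteins, had 742.8 ± 32 CPM in siControl and 800.3 ± 99.1 in siHOXA3, and CBX5, the heterochromatin protein HP1 alpha, 616.5 ± 40 and 571.1 ± 118 (SD, n = 3). The 10 genes of the list of methyl-CpG readers and their relatives were split 5 and 5 in both settings. Their median was 0.01, and -0.01 without siHOXA3 replicate 2. MBD1 had 85.85 ± 2.74 and 87.56 ± 7.86 CPM, and MBD3, a subunit of the NuRD complex, 75.85 ± 3.23 and 82.94 ± 19.7 (SD, n = 3). The 9 other CXXC domain genes, whose domain binds unmethylated CpG, had 6 above 0 and 3 below, with a median of 0.04, and 7 and 2 without siHOXA3 replicate 2 (median 0.13). KDM2A, a histone H3 demethylase, had 117.1 ± 8.93 and 127.8 ± 24.5 CPM, and KMT2A, a histone H3 methyltransferase, 111.4 ± 10.5 and 102.9 ± 33.8 (SD, n = 3). Both were lowest in siHOXA3 replicate 2, and without it KDM2A had a log2 fold change of 0.27 (unadjusted p = 0.00251, adjusted p = 0.208).

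On the side of demethylation, 14 genes that remove oxidised or deaminated bases had 4 above 0 and 10 below, with a median of -0.03, and 5 and 9 without siHOXA3 replicate 2 (median -0.06). PARP1, which signals strand breaks, had 319.4 ± 15.3 CPM in siControl and 319.4 ± 21.8 in siHOXA3, and the nuclease APEX1 134.3 ± 3.88 and 159.8 ± 28.9 (SD, n = 3). The adjusted p of APEX1 was 0.791. Of 16 TET partners and cofactor genes, 7 were above 0 and 9 below, with a median of -0.04, and 8 and 8 without siHOXA3 replicate 2 (median -0.02). IDH2, which makes the TET cofactor alpha-ketoglutarate in mitochondria, was at 116.8, 111.4 and 111.6 CPM in siControl and 144.7, 154.4 and 119.4 CPM in siHOXA3 replicates 1, 2 and 3. With all 6 libraries it was the only gene of the 9 lists with an unadjusted p under 0.05, with a log2 fold change of 0.30 (unadjusted p = 0.0209, adjusted p = 0.724), and 0.22 (adjusted p = 0.364) without siHOXA3 replicate 2. OGT, the glycosyltransferase that binds TET proteins, had 385.4 ± 17.1 and 346.5 ± 76.1 CPM (SD, n = 3), with siHOXA3 replicate 2 the lowest library at 259.9.

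Supply of the methyl donor was given by 17 genes of the S-adenosylmethionine cycle, of which 14 were tested, 6 above 0 and 8 below, with a median of -0.03. When siHOXA3 replicate 2 was left out, 15 were tested, 5 above 0 and 10 below (median -0.08). AHCYL1, a relative of adenosylhomocysteinase, had 284.1 ± 5.19 CPM in siControl and 257.8 ± 16.3 in siHOXA3, and AHCY, the enzyme itself, 225.2 ± 9.81 and 227.6 ± 28.7 (SD, n = 3). The adjusted p of AHCYL1 was 0.843. Germline genes that somatic cells keep methylated were close to silent. Of 18 such genes, 12 had at most 3 counts in each library, 7 of which had none in any, and only TEX14, needed for germ cell bridges, could be tested, at 1.485 ± 0.711 CPM in siControl and 1.583 ± 0.408 in siHOXA3 (SD, n = 3). SYCP3, of the meiotic chromosome axis, was next by its siControl level, with 0.509 ± 0.145 and 0.3879 ± 0.0317 CPM (SD, n = 3) and was not tested. DNA methylation itself was not measured in these libraries.

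**Figure D5:**
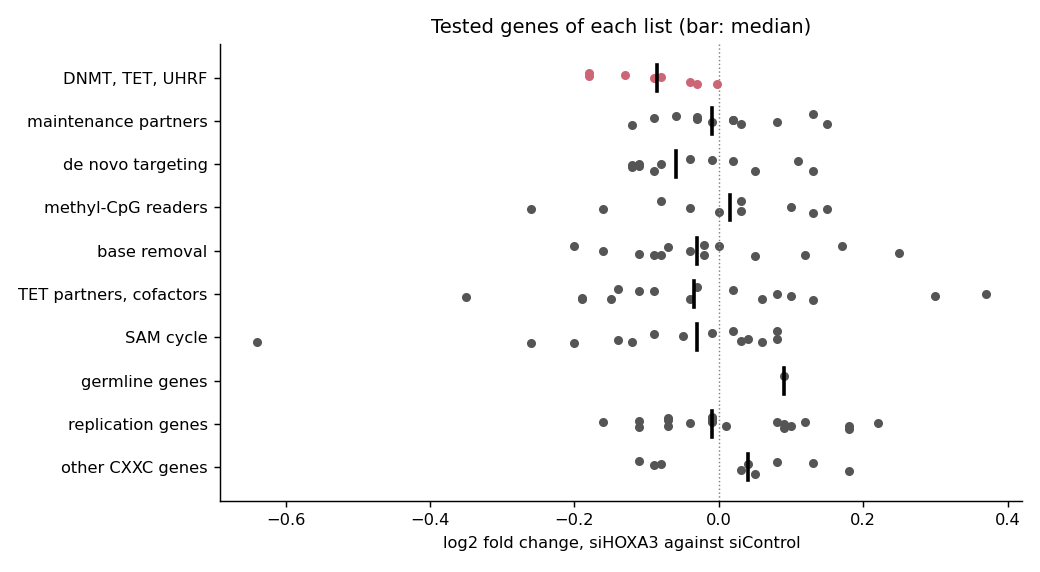
Log2 fold change of siHOXA3 against siControl (x axis) of each tested gene in the DNMT, TET and UHRF families (red) and in the 9 lists (grey) on the y axis, with a bar at the median of each. The medians of the lists with more than 1 gene tested lie between -0.06 and 0.04, and that of the 8 members is -0.09.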

How the data were processed

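RNA-seq was performed on 3 siControl and 3 siHOXA3 samples by the LM-Seq protocol with single reads, and the labels also name a SMARTER kit. The authors deposited raw counts of reads per gene in 1 table, without normalization. The aligner, counter and use of strand are not given in the sources used here. The submitters' processing notes name the mouse builds GRCm38 and mm10, but 100% of the identifiers were found in human GENCODE release 29, which gave symbols, positions and lengths.

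Counts were tested in R 4.3.3 with edgeR 4.0.16 (filterByExpr, TMM, robust quasi-likelihood fit, two-sided test, Benjamini-Hochberg adjustment over the 16561 genes kept). CPM used the TMM library sizes. limma 3.58.1 and DESeq2 1.42.0 served for alternatives, and the correction that put each library's smooth trend over transcript length into the offset was chosen after seeing the data. Scripts were checked on simulated counts. The 9 genes, the 9 lists and the cell type markers were chosen with earlier results of these data known. From each list, genes with an unadjusted p under 0.05 and then the most abundant were named until 2 were given. Genes that had an unadjusted p under 0.05 only without siHOXA3 replicate 2 were remarked on after their values were seen, as were the markers TFAP2A, VIM and THY1. Of 2 genes most like each member, the first is given, by Pearson's r over log2 CPM. Same-numbered samples were checked for pairing by the correlation of their deviations from the group means. Values of 1 pouch marker are not reported here.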

Additional observations from a re-analysis of the deposited data

How the results depend on the processing

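No member of the DNMT, TET and UHRF families reached an adjusted p under 0.05 in any alternative tried, and UHRF2 was below 0 in all of them. Of 112 log2 fold changes of the 8 members under the alternatives, 89 kept their sign and 23 turned, 12 of them with a library left out. Under voom with weights for sample quality, the log2 fold changes of DNMT1, DNMT3A, DNMT3B, TET1, TET2 and UHRF1 were 0.05, 0.04, 0.010, 0.04, 0.08 and 0.004. With the transcript length correction, those of DNMT3A, TET2 and UHRF1 were 0.09, 0.03 and 0.001. DNMT3A was at 0.02 with upper-quartile normalization and at 1.5e-04 with no filter. With each library left out in turn, the ranges were -0.19 to 0.04 for DNMT1, -0.03 to 0.04 for DNMT3A, -0.20 to 0.01 for DNMT3B, -0.20 to 0.07 for TET1, -0.17 to 0.14 for TET2, -0.28 to 0.007 for TET3 and -0.13 to 0.05 for UHRF1. The cause was not tested.

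Over all genes, 1 gene had an adjusted p under 0.05 in the main analysis. This count was 2 with the length correction, 38 with DESeq2, 47 with voom and 100 when no filter was applied, and between 1 and 24 with a library left out, 24 being without siHOXA3 replicate 2. The number with an unadjusted p under 0.05, 1053 in the main analysis, was 1862 when no filter was applied and more genes were tested, and 2206 with voom, and between 643 and 1828 with a library left out. It was 643 without siControl replicate 2 and 671 without siControl replicate 3. The number of members with an unadjusted p under 0.05, 0 in the main analysis, was 1, UHRF2, with voom (limma's moderated test, unadjusted p = 0.0228, adjusted p = 0.293), and between 0 and 1 with a library left out. Of 126 medians of the lists, 116 moved by less than the spread between replicates and 10 by more. Whether the replicate numbers pair the samples was not settled. The correlations of same-numbered deviations were 0.142, 0.104 and -0.059 across genes, and no differently numbered samples were compared with them. The fit with a replicate block called 4 genes at an adjusted p under 0.05, none of them a member. Without siHOXA3 replicate 2 the 95% intervals were narrower, and that of UHRF2 (-0.36 to -0.05) did not include 0.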
